A study of Mus musculus with 28 samples.

Results

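Cholesterol is made from acetyl-CoA in a long chain of enzymes, and the 8 genes followed here sit at its entry, its middle, its end and its control point. They were chosen by name out of 32594 genes counted in the mouse pituitary, and all 8 had enough reads to be tested. Hmgcs1, Idi1, Fdft1, Sqle, Lss and Dhcr7 encode enzymes of the chain. Insig1 and Srebf2 encode a sterol sensor and the transcription factor that the sensor controls. None of the 8 takes cholesterol up from outside the cell, so uptake was read from a list of receptor genes given further on.

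Whole pituitary glands came from 28 C57BL/6J mice, 16 females and 12 males, all 8 weeks old on arrival, with 1 library per mouse. All mice, controls included, had first been adapted to the sleep deprivation procedure for 1 h a day on 3 days. Home cage controls (4 females, 4 males) then had neither treatment. Restraint mice (4 females, 2 males) spent 20 min in a restrainer, PSD mice (4 females, 3 males) had 12 h of paradoxical sleep deprivation (PSD), and PSD + restraint mice (4 females, 3 males) had both. Restrained mice were killed 10 min after leaving the restrainer, and glands of every group were taken 18 h after the sleep deprivation period, at the daily low point of corticosterone. The labels name no mutant allele and no drug in any group, and the design asked how earlier sleep loss changes the gland's transcripts after an acute stressor in each sex.

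When membrane cholesterol in the endoplasmic reticulum falls, SCAP carries SREBP2, the Srebf2 product, to the Golgi, where 2 proteases release its active part. That fragment enters the nucleus and switches on genes of cholesterol synthesis and uptake. When sterols are plentiful, INSIG1 holds SCAP in the endoplasmic reticulum and the pathway goes quiet. Insig1 is itself an SREBP target, so its transcript is often read together with those of the enzymes. In endocrine tissue cholesterol also shapes the membranes of secretory granules.

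The start regions of 5 of the 8 genes are printed here because their transcripts carry the results below: Hmgcs1, Idi1 and Insig1 had the largest differences after restraint, Lss had the smallest adjusted p of the 8 after PSD + restraint, and Srebf2 is the factor itself. Each covers 250 bases before to 50 after a RefSeq start (build GRCm38.p6, plus strand), 300 bases in all. Capitals mark CACNCCAC, a sterol element core with 1 free base, and CCAAT, the core bound by the factor NF-Y, each on either strand, so that ATTGG is CCAAT read on the minus strand. The regions are chr13:119690101-119690400 for Hmgcs1, chr13:8885356-8885655 for Idi1, chr5:28071162-28071461 for Insig1, chr10:76531355-76531654 for Lss and chr15:82147019-82147318 for Srebf2.
Hmgcs1: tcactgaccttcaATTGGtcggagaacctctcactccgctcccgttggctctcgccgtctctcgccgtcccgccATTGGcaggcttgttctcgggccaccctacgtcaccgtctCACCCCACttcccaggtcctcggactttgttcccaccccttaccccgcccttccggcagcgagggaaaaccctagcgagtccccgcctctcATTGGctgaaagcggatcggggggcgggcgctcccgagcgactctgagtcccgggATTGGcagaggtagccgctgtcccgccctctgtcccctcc
Idi1: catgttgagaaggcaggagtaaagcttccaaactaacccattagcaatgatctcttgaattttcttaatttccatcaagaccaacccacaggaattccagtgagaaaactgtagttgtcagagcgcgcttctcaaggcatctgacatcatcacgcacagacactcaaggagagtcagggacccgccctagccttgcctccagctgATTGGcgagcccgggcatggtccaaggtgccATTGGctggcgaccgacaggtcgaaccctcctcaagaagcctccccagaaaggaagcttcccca
Insig1: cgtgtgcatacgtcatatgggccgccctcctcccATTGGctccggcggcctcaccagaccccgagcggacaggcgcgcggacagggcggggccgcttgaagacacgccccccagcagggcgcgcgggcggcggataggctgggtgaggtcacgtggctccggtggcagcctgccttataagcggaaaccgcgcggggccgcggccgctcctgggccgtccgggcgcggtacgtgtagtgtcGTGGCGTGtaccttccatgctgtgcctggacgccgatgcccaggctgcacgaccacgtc
Lss: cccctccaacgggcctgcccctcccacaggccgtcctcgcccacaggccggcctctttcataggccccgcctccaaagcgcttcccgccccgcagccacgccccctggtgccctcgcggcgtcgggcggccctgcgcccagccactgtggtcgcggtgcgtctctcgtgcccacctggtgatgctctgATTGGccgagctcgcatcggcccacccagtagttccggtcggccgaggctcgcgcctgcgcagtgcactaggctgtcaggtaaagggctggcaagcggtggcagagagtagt
Srebf2: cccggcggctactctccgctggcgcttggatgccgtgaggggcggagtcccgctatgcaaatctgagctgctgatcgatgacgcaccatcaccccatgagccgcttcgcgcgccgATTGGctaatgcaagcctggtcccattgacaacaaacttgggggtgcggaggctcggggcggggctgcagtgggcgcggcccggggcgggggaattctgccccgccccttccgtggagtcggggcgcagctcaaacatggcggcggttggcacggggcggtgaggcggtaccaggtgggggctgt
The table held a start region for 6 of the 8 members, with 3 starts for Dhcr7, and all letters were searched on both strands. The full sterol core CACCCCAC, which is also counted as a CACNCCAC match, was in 1 of the 6 (Hmgcs1, 136 to 129 bases before the start), against 2.87% of 32851 mouse start regions of the same length. CACNCCAC was in Hmgcs1 and Insig1, against 6.24% of all regions. CCAAT was in 6 of the 6, against 37.4%, with 4 copies in Hmgcs1 between positions -237 and 15. The GC box GGGCGG was in 6 of the 6, against 35.7%, and the E-box CACGTG in Insig1 and Dhcr7, against 7.15%. A member was counted if any of its starts held the letters, while the percentages are of single regions. Dhcr7 had CCAAT only at start 3, the E-box only at start 2 and the GC box at starts 1 and 3. These matches describe the letters in the windows and say nothing of binding in these mice.

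Total counts per mouse ran from 14024465 to 52948531 (median 33389717), and a member had 346 to 6474 counts in a mouse. Levels are CPM, counts scaled to a common library size with TMM factors. Of the 28 libraries, 5 stood apart in markers of the neurointermediate lobe, myelin or adipocytes. In control male 1 the 6 markers of the neurointermediate lobe summed to 236 CPM, against 858 to 1110 CPM in the other control males. In PSD females 1 and 3 and PSD + restraint female 4 the mean log2 CPM of 7 myelin markers was 3.02 to 4.05, against at most 2.65 in the other 25 mice. The 5 forebrain neuron markers summed to 68.2 CPM in PSD female 1 and 49.6 CPM in PSD + restraint female 4, against 8.87 to 26.8 CPM in all other mice. In restraint female 3, 8 adipocyte markers summed to 799 CPM, against 2.15 to 5.65 CPM in the other 27 mice. The anterior pituitary markers, with Gh and Prl among them, were high in every mouse, at a summed 242725 to 365121 CPM. Where leaving out these 5 mice moved a result described below across a limit, its value without them stands beside it. The 3 blood markers counted summed to 425 CPM in PSD male 1 and 352 CPM in PSD + restraint male 3, against 850 to 2995 CPM in all other mice. Neither mouse is among the 5. They held the lowest male values of Insig1, at 87.7 and 85.8 CPM in turn. Control male 2 came next at 88.9 CPM, with its blood markers at 1756 CPM. The part of blood in the results was not tested.

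Compared per length of exon, Insig1 was the most abundant of the 8 transcripts and Lss the least. In females the mean level was 29.0 ± 6.10 CPM per kb (SD, n = 16) for Insig1, 18.3 ± 1.14 for Fdft1, 12.3 ± 0.945 for Srebf2 and 11.2 ± 1.48 for Hmgcs1. It was 7.51 ± 0.614 CPM per kb for Sqle, 6.82 ± 0.748 for Idi1, 5.05 ± 0.426 for Dhcr7 and 3.34 ± 0.269 for Lss. Srebf2 and Hmgcs1, and Sqle and Idi1, did not differ beyond their spread in females. In males Insig1 led at 37.0 ± 6.25 CPM per kb (SD, n = 12) before Fdft1 at 22.4 ± 1.63, and Hmgcs1 at 14.3 ± 1.83 (12.0 to 17.0) overlapped Srebf2 at 12.5 ± 0.833 (11.1 to 13.9). Sqle at 8.80 ± 0.519 and Idi1 at 8.34 ± 1.29 again overlapped, with Dhcr7 at 4.89 ± 0.580 and Lss at 4.19 ± 0.346 CPM per kb last. Exon lengths are those of all annotated transcripts of a gene together, which lowers the values of genes with long alternative exons.

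**Figure D1:**
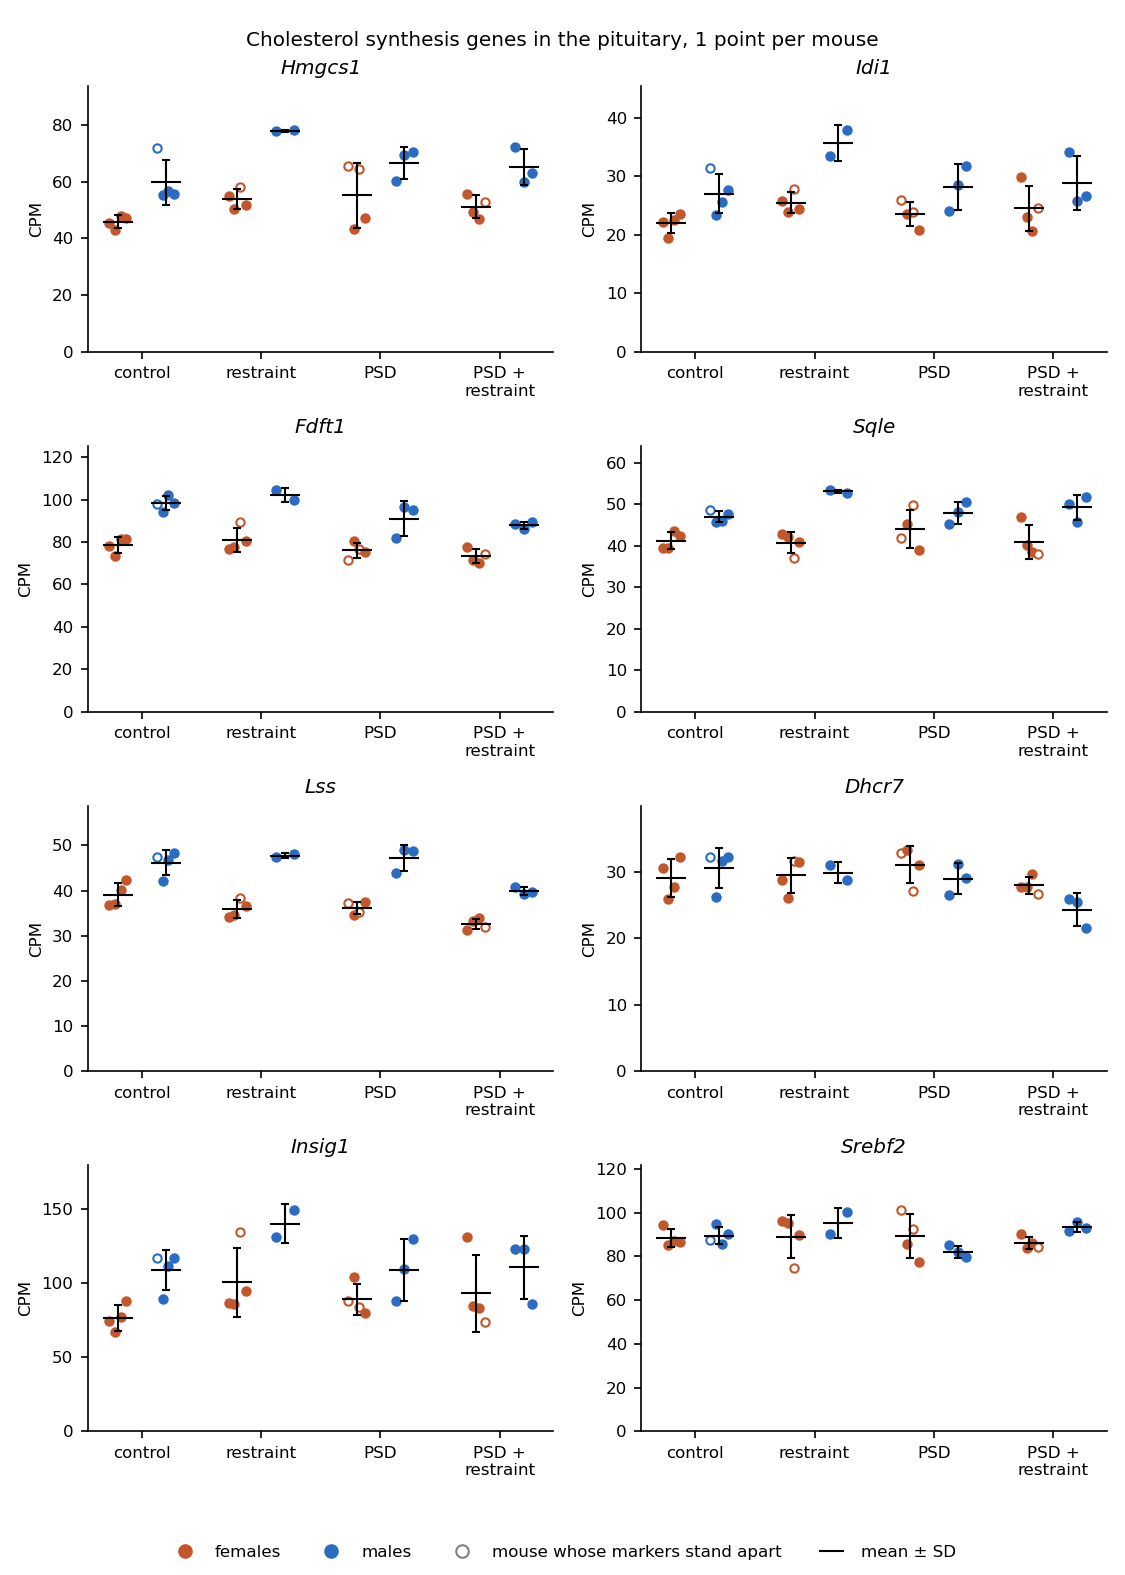
Level of each of the 8 genes in CPM (vertical axes, from 0) in each of the 28 mice by treatment, with females and males side by side. Points are mice and bars are group means ± SD. Open points are the 5 mice that stand apart in neurointermediate lobe, myelin or adipocyte markers. Every male sits above every female of its group in all 4 groups for Fdft1, in 3 for Hmgcs1 and Lss and in controls alone for Insig1. Srebf2 and Dhcr7 overlap between the sexes except in PSD + restraint mice. There every female lies below every male for Srebf2 and above every male for Dhcr7.

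Females had lower levels of 6 of the 8 transcripts than males. Across all 28 mice, with treatment in the model, Hmgcs1 and Insig1 were called lower in females (adjusted p at or under 0.05 and a difference of at least 1.25-fold), which 7.79% of the 18936 genes tested were (14.9% were called in either direction). By the adjusted p alone, Hmgcs1, Idi1, Fdft1, Sqle, Lss and Insig1 were lower, 6 of the 8, against 16.7% of all genes tested. No member was higher in females. The median log2 difference of females minus males was -0.30 over the 8 genes and 0.01 over all genes tested.

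Hmgcs1 encodes the cytosolic HMG-CoA synthase, an early step of the chain, and lies on GRCm38 chromosome 13 from 119690379 to 119708260, with 557 exonic bases under the antisense transcript Gm48342. In females it ran from 43.0 to 65.6 CPM with a median of 49.9 (n = 16), and in males from 55.2 to 78.2 CPM with a median of 66.2 (n = 12). The log2 difference was -0.38 (SE 0.058, edgeR adjusted p = 1.03e-05), a level 23.0% lower in females. In home cage controls the females were at 45.3, 43.0, 48.1 and 47.3 CPM and the males at 71.7, 55.2, 56.8 and 55.7 CPM. Every control female lay below every control male, as for 9.27% of all genes tested, and control male 1 lay far above the other control males.

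Idi1 encodes isopentenyl diphosphate isomerase, which makes the allylic building block of the isoprenoid chain. It lies on chromosome 13 from 8885501 to 8892451 and shares 323 exonic bases with the transcript Gm48574 on the other strand. Its level was 19.5 to 29.8 CPM in females (median 23.7) and 23.4 to 37.9 CPM in males (median 28.1), a log2 difference of -0.31 (SE 0.060, edgeR adjusted p = 0.000169). Among home cage controls the 2 sexes overlapped.

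The 3 enzymes of the squalene branch were all lower in females. Fdft1, squalene synthase, lies on the minus strand of chromosome 14 from 63145150 to 63179578, where 774 of its exonic bases also belong to Ctsb on the other strand. It was at 78.3, 73.6, 81.6 and 81.6 CPM in control females and at 98.2, 94.4, 102.4 and 98.7 CPM in control males. Within each of the 4 treatment groups, every female lay below every male, as for 9.27% of genes in controls, 15.4% in restraint mice, 11.8% in PSD mice and 10.1% in PSD + restraint mice, and the log2 difference across all mice was -0.29 (SE 0.031, edgeR adjusted p = 2.53e-08). Sqle, squalene epoxidase and a rate-limiting step after squalene (chromosome 15, 59315077 to 59331192), ran from 37.0 to 49.7 CPM in females (median 41.4) and from 45.2 to 53.4 CPM in males (median 48.3). Its log2 difference was -0.23 (SE 0.040, edgeR adjusted p = 5.26e-05). Lss, lanosterol synthase, which closes the sterol rings (chromosome 10, 76531588 to 76557138, with 381 exonic bases under the antisense transcript 4930483K19Rik), ran from 31.4 to 42.4 CPM in females (median 36.0) and from 39.3 to 49.0 CPM in males (median 47.0). Its log2 difference was -0.32 (SE 0.031), just short of the 1.25-fold limit, with the smallest adjusted p of the 8 genes (edgeR, 6.81e-09).

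Insig1, on chromosome 5 from 28071363 to 28078662, had the widest spread of the 8. It was at 74.5, 66.8, 77.2 and 87.7 CPM in control females and at 117.2, 88.9, 111.7 and 116.8 CPM in control males, with no overlap. The log2 difference was -0.38 across all mice (SE 0.089, edgeR adjusted p = 0.00123) and -0.50 in home cage controls (SE 0.168, edgeR adjusted p = 0.0438).

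The remaining 2 genes did not differ detectably by sex across all mice. Dhcr7, which makes the last double bond change to cholesterol in one of the 2 end routes (chromosome 7, 143823145 to 143848410), had a median of 29.2 CPM in females (25.8 to 33.2) and 28.9 CPM in males (21.5 to 32.2). The 95% interval of its log2 difference ran from -0.05 to 0.15. Srebf2 (chromosome 15, 82147181 to 82205379, with Mir33 inside it) had a median of 86.9 CPM in females (74.9 to 101.3) and 90.3 CPM in males (79.5 to 100.1), and an interval from -0.11 to 0.06. These intervals bound a difference by sex across all mice at well under the 1.25-fold limit for both genes. Among PSD + restraint mice alone, every female lay below every male for Srebf2, as for 10.1% of genes. For Dhcr7 every female of that treatment lay above every male, at 26.7 to 29.7 CPM against 21.5 to 25.9 CPM. The share of all genes with that order was not counted, so how common it is cannot be said.

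In home cage controls alone, with no treatment, 2 of the 8 were called lower in females (Hmgcs1 and Insig1, against 5.79% of genes tested and 10.7% called in either direction) and 4 were lower by the adjusted p (with Fdft1 and Lss, against 7.55%). Idi1 at -0.30 (adjusted p = 0.0789) and Sqle at -0.19 (adjusted p = 0.0721, edgeR) did not pass. The calls in home cage controls rested on single mice: 0 of the 8 were called without control male 1, without control female 2 or without the 5 mice, and 4 without control male 2. Without the 5 mice Hmgcs1 still passed at -0.28 (adjusted p = 0.0124) and Insig1 did not, at -0.47 (adjusted p = 0.0673). Across all mice the same exclusion left 6 of the 8 lower and 3 called, with Idi1 added at -0.33. Leaving out 1 mouse at a time gave 2 to 4 called across all mice, and Lss and Idi1 lay just under the fold limit.

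The sexes also differed in hormone transcripts. Of the 9 anterior pituitary markers Prl was called higher in females, at a log2 difference of 2.04, and 5 were called lower, with Gh at -1.05, Fshb at -2.40 and Lhb at -0.72. Mbp of the myelin list was higher at 0.63 and Pax7 of the neurointermediate list at 0.57. In whole glands, fewer cells of a type and less RNA per cell cannot be told apart. The same 6 members were lower in females with the neurointermediate lobe or the myelin marker level in the model, and the part of the hormone cells was not tested.

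**Figure D2:**
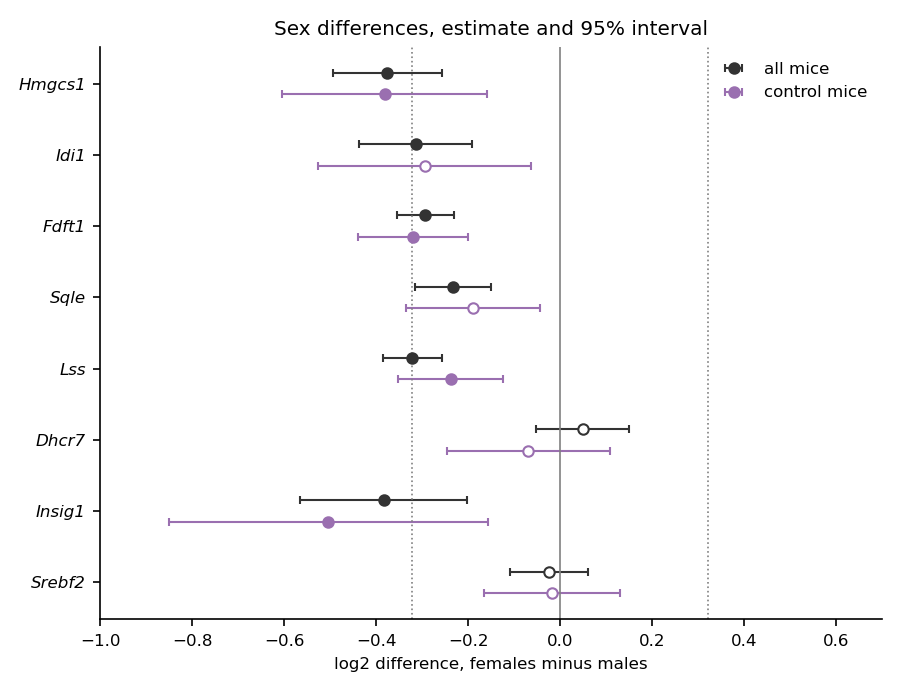
Log2 difference of females minus males for each of the 8 genes (horizontal axis) with 95% intervals, across all 28 mice and in home cage controls; filled points have an adjusted p at or under 0.05. The 6 genes from Hmgcs1 to Insig1 that passed across all mice lie between -0.38 and -0.23, while Dhcr7 at 0.05 and Srebf2 at -0.02 span 0.

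After restraint alone the largest estimates of the 8 were those of Hmgcs1, Idi1 and Insig1, and none of the 8 passed the test across all mice. By edgeR 0 of 8 were called or passed (1.14% of 18936 genes tested were called) and 3 reached 0.05 without adjustment, as did 1948 of all genes tested. DESeq2 called 0 of 8 and passed Hmgcs1 at an adjusted p of 0.0375. The median log2 fold change was 0.05 over the 8 genes and 0.00 over all genes tested.

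Hmgcs1 was at 55.0, 50.5, 58.2 and 51.9 CPM in restraint females, all above the control females listed before, and at 77.8 and 78.2 CPM in the 2 restraint males, above all 4 control males. Across all mice its log2 fold change was 0.28 (SE 0.082, 95% interval 0.12 to 0.45, edgeR adjusted p = 0.0798). Without the 5 mice it passed, at 0.31 (edgeR adjusted p = 0.00595), still under the fold limit. In males without them, which removes control male 1, it was called at 0.48 (edgeR adjusted p = 0.0355). It was also called across all mice when only control male 1 was left out, at 0.32 (edgeR adjusted p = 0.0273).

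Idi1 was at 22.3, 19.5, 22.6 and 23.6 CPM in control females and 25.9, 23.8, 27.9 and 24.4 CPM in restraint females. In males it was at 31.4, 23.4, 25.7 and 27.7 CPM in controls and at 33.5 and 37.9 CPM after restraint. As for Hmgcs1, restraint mice lay above controls in both sexes, which holds for 0.866% of all genes tested, 2.74% in females alone and 6.36% in males alone. Its log2 fold change of 0.28 (SE 0.084, 95% interval 0.11 to 0.45) had an edgeR adjusted p of 0.103.

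Insig1 had the largest estimate and the largest error, 0.36 (SE 0.125, 95% interval 0.11 to 0.62, edgeR adjusted p = 0.184). Restraint females were at 86.8, 85.7, 134.6 and 94.7 CPM and restraint males at 130.9 and 149.5 CPM. The highest female value was that of restraint female 3, the mouse with adipocyte transcripts. Without the 5 mice the estimate was 0.30 (edgeR adjusted p = 0.364).

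For the other 5 genes the estimates were small. Log2 fold changes were 0.06 for Sqle, 0.04 for Fdft1, 0.04 for Srebf2, -0.02 for Dhcr7 and -0.05 for Lss. The 95% intervals, as folds, ran from 0.960 to 1.13 for Sqle, 0.968 to 1.10 for Fdft1, 0.947 to 1.12 for Srebf2, 0.894 to 1.09 for Dhcr7 and 0.908 to 1.03 for Lss. In females alone 0 of 8 passed (0.543% of genes were called, and 3 members had an unadjusted p under 0.05 by edgeR), and in males alone also 0 of 8 (0.296%, and 4 members with an unadjusted p under 0.05). Such a p was reached by 1765 of 18059 genes tested in females and 927 of 18271 in males.

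Of the 8 genes, none passed the test 18 h after PSD alone. By edgeR 0 of 8 were called or passed, in all mice (0.671% of genes were called), in females (0.0277%) and in males (0.00547%), and an unadjusted p under 0.05 was reached by 1 member, 1 member and 0 members in turn. Among all genes tested it was reached by 3328 of 18936, 3567 of 18059 and 1617 of 18271 in turn. DESeq2 also called 0 of 8 in each of these. Hmgcs1 had the largest estimate, 0.22 (95% interval 0.06 to 0.38, edgeR adjusted p = 0.151). Its PSD females split into 65.6 and 64.5 CPM in mice 1 and 3, the 2 with high myelin markers, and 43.5 and 47.3 CPM in mice 2 and 4. The PSD males were at 60.2, 69.3 and 70.5 CPM and overlapped the controls. The other 7 genes had estimates between -0.07 and 0.12. Srebf2 in PSD males was at 85.1, 81.8 and 79.5 CPM, each below the lowest control male at 85.6 CPM, as for 5.62% of genes.

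After PSD followed by restraint, Lss was lower than in home cage controls. Control females were at 36.9, 37.1, 40.1 and 42.4 CPM and PSD + restraint females at 31.4, 33.4, 33.9 and 31.9 CPM. Control males were at 47.5, 42.2, 46.7 and 48.4 CPM and PSD + restraint males at 40.9, 39.3 and 39.6 CPM. The groups did not overlap in either sex, which holds in this direction for 7.29% of genes in females, 7.92% in males and 1.87% in both. Across all mice Lss fell by 0.23 on the log2 scale (SE 0.043, edgeR adjusted p = 0.000791), a loss of 14.6%, which is under the 1.25-fold limit. It passed in 28 of 28 fits that left out 1 mouse, and without the 5 mice (adjusted p = 0.00459). In females alone it fell by 0.25 (edgeR adjusted p = 0.0313), a result that passed in 11 of 16 fits that left out 1 female and not without the 5 mice (adjusted p = 0.0718), and in males the estimate was -0.21 (edgeR adjusted p = 0.110).

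Fdft1 passed by a small margin, falling by 0.13 on the log2 scale (SE 0.042, edgeR adjusted p = 0.0492), and it passed in 13 of 28 fits that left out 1 mouse and not without the 5 mice (adjusted p = 0.0601). With Lss it made 2 of 8 members lower by the adjusted p alone, against 5.34% of genes tested, and 0 of 8 were called, against 5.46% called in either direction. DESeq2 also called 0 of 8, and 3 members had an unadjusted p under 0.05 in either tool. By edgeR 4838 of 18936 genes tested had such a p. Dhcr7 had an estimate of -0.18 (edgeR adjusted p = 0.0884). Its PSD + restraint males, at 25.9, 25.5 and 21.5 CPM, lay below the 4 control males at 32.1, 26.2, 31.6 and 32.2 CPM, while the females overlapped. The males of Fdft1 did not overlap either, at 88.5, 86.0 and 89.4 CPM against 94.4 to 102.4 CPM. Hmgcs1 at 0.14, Idi1 at 0.13 and Insig1 at 0.16 had estimates above 0 that did not pass, and Sqle at 0.03 and Srebf2 at 0.01 were near 0. By sex, Lss was the only member to pass in females (1 of 8, against 1.11% of genes lower and 2.2% called), and 0 of 8 passed in males (2.56% called, with 3 members at an unadjusted p under 0.05). In males 3181 of 18271 genes tested had such a p. Pomc at 0.99 and Pcsk2 at 0.996, made by corticotropes and by melanotropes of the neurointermediate lobe, were called higher in the same comparison. Of 5 macrophage markers Cd68 was called higher too, at 0.40 (edgeR adjusted p = 0.00276), and the 5 summed to 77.6 to 90.1 CPM in PSD + restraint females against 63.8 to 68.4 CPM in control females, and to 71.7 to 76.8 CPM against 67.2 to 78.5 CPM in males. The part of these cells in the results was not tested. With the mean level of the neurointermediate lobe markers in the model, Lss was still lower across all mice at -0.21 (adjusted p = 0.00615), while Lss in females alone at -0.18 (adjusted p = 0.385) and Fdft1 across all mice at -0.12 (adjusted p = 0.117) did not pass.

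Within sleep-deprived mice, restraint again came with a lower Lss, by 0.19 on the log2 scale (edgeR adjusted p = 0.0150), which made 1 of 8 members lower by the adjusted p, against 1.28% of genes (2.01% were called, and 0 of 8 members). It did not pass without the 5 mice, at -0.19 (adjusted p = 0.0557). PSD females were at 37.3, 34.7, 35.3 and 37.4 CPM and PSD males at 43.8, 49.0 and 48.7 CPM, above the PSD + restraint mice of the same sex, as for 1.14% of genes. Dhcr7 at -0.19 (adjusted p = 0.157) did not pass. Among restrained mice, earlier PSD gave estimates of -0.18 for Lss and -0.17 for Fdft1, and 0 of 8 members passed by edgeR (0.0951% of genes were called, and 3 members had an unadjusted p under 0.05), while DESeq2 passed both and called neither. Such a p by edgeR was reached by 2560 of 18936 genes tested. These comparisons share mice with the ones above and are not separate evidence.

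The interaction of PSD and restraint, which asks whether the response to restraint changed after sleep loss, was called for 0% of genes. Hmgcs1 had an interaction of -0.36 on the log2 scale (unadjusted p = 0.00421, edgeR adjusted p = 0.9999), and 2 members had an unadjusted p under 0.05, as did 743 of 18936 genes tested. Tests of whether a response differed between females and males also called 0% of genes for each treatment. The smallest unadjusted p of a member there was that of Dhcr7 after PSD + restraint (difference 0.27, unadjusted p = 0.0490, edgeR adjusted p = 0.689).

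**Figure D3:**
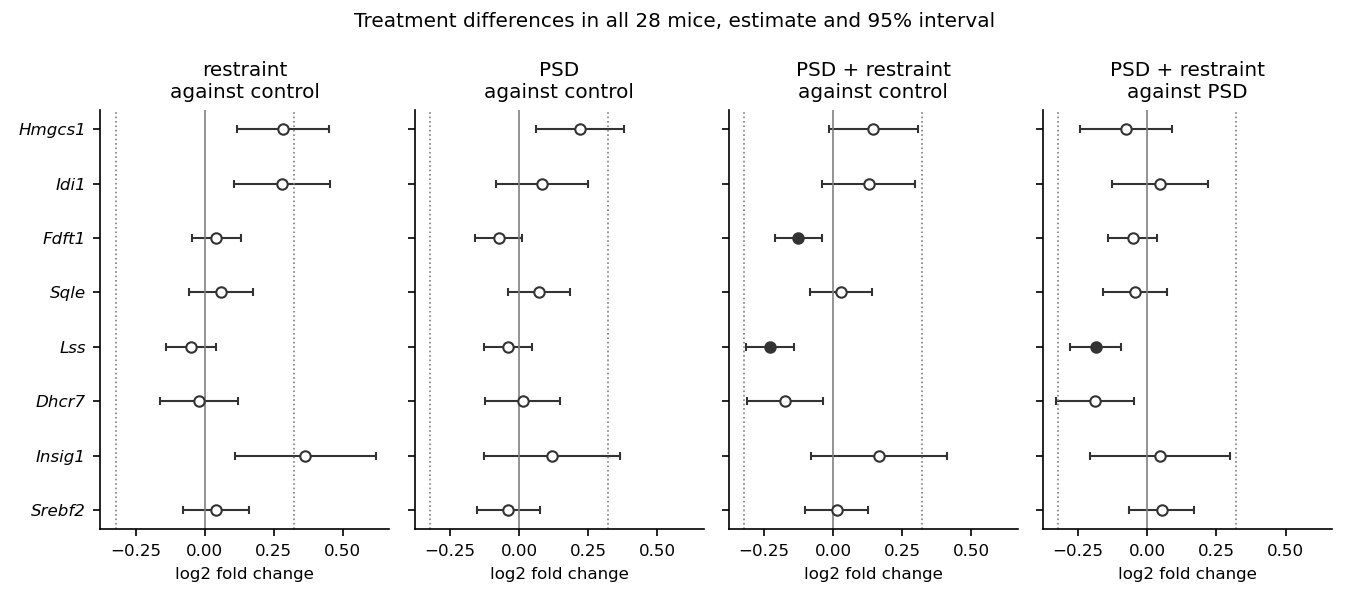
Log2 fold change of each of the 8 genes (horizontal axes) in all 28 mice, with 95% intervals. Panels show restraint, PSD and PSD + restraint against home cage controls, and PSD + restraint against PSD. Filled points have an adjusted p at or under 0.05 and dotted lines mark the 1.25-fold limit. Against home cage controls the filled points are Lss at -0.23 and Fdft1 at -0.13 after PSD + restraint, and against PSD mice Lss alone is filled. The highest estimates are those of Insig1, Hmgcs1 and Idi1 after restraint.

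Other enzymes of the same chain did pass the test after restraint. Of 21 genes of cholesterol synthesis, the 6 enzyme members among them, 2 were called higher after restraint, against 0.935% of all genes tested, and none lower. These were Pmvk, phosphomevalonate kinase, at 0.44 (SE 0.092, edgeR adjusted p = 0.00751), and Cyp51, lanosterol demethylase, at 0.45 (edgeR adjusted p = 0.0122). Pmvk was at 27.9, 25.7, 29.5 and 27.4 CPM in control females and at 35.1, 39.6, 41.1 and 42.4 CPM in restraint females. Cyp51 was at 27.8, 29.0, 29.1 and 31.4 CPM in control females and at 38.6, 37.8, 36.8 and 42.4 CPM in restraint females. Neither overlapped between these groups of females, as for 2.74% of genes. In males Pmvk overlapped, at 28.9 to 37.1 CPM in controls and 34.0 and 40.2 CPM after restraint, while Cyp51 was at 27.7 to 44.3 CPM in controls and at 44.4 and 46.0 CPM after restraint, with control male 1 just below the restraint males. In males alone 0 of 21 were called or passed by edgeR, and in females alone 1 was called. Without the 5 mice 3 of the 21 were called across all mice, with Pmvk at 0.43 and Cyp51 at 0.53 among them, and 4 passed, with Hmgcs1. The median of the 21 was 0.10 on the log2 scale, with 19 of 21 estimates above 0, against a median of 0.00 over all genes tested.

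After PSD + restraint, 3 of the 21 were called higher, against 4.1% of all genes tested, with Cyp51 at 0.54 (edgeR adjusted p = 0.000499) and Pmvk at 0.44 (edgeR adjusted p = 0.00151) among them. In the same list Lss and Fdft1 were the 2 that were lower by the adjusted p, against 5.34% of all genes tested. Cyp51 and Pmvk were called in each of 28 fits that left out 1 mouse. Without the 5 mice 4 were called higher, with Hsd17b7, a sterol ketone reductase, added at 0.42. Control male 1 was again the highest control male, at 44.3 CPM for Cyp51 against 27.7 to 29.0 CPM. The median of the 21 was 0.04. After PSD alone 0 of 21 were called or passed by edgeR, with 4 at an unadjusted p under 0.05, against 3328 of 18936 genes tested. Restraint within PSD mice left Pmvk (0.44, adjusted p = 0.00459) and Cyp51 (0.36, adjusted p = 0.0466) called, the latter in only 12 of 28 fits with 1 mouse left out.

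**Figure D4:**
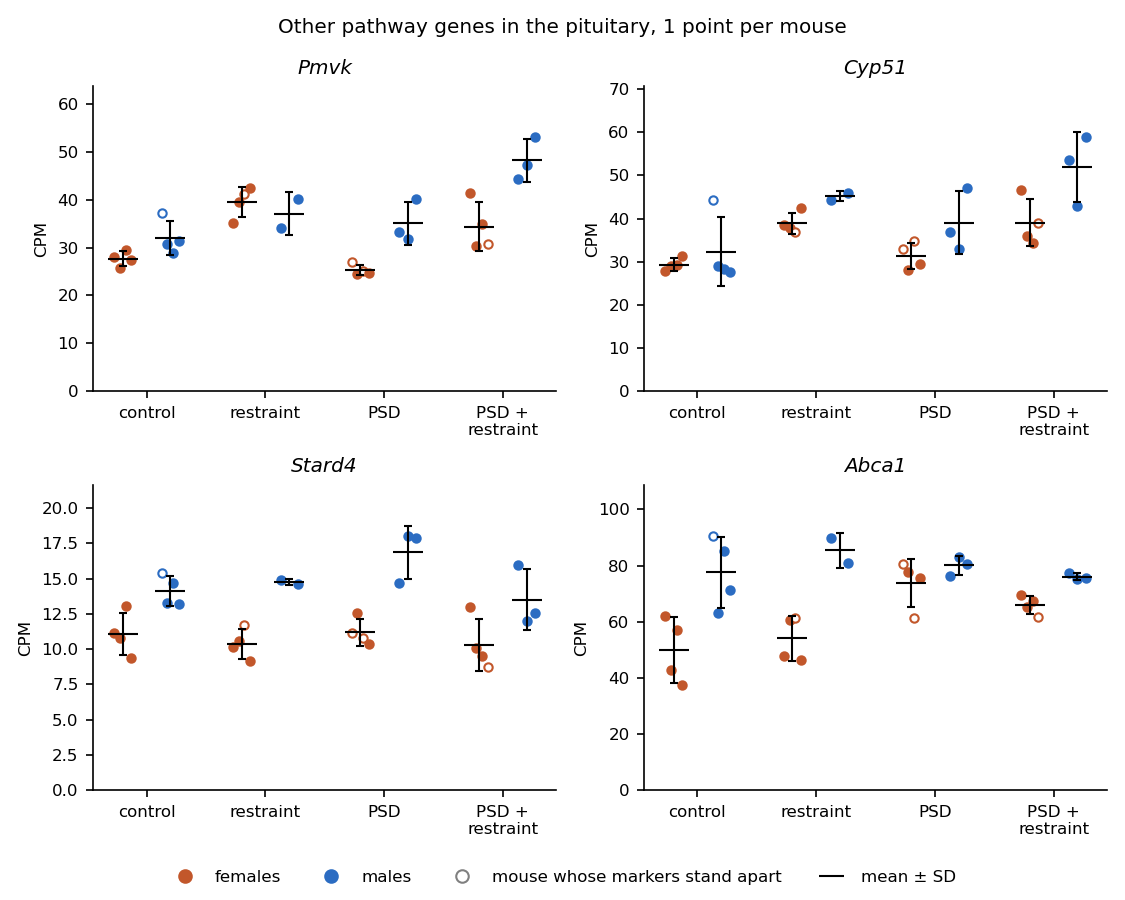
Level in CPM (vertical axes, from 0) of Pmvk, Cyp51, Stard4 and Abca1 in each of the 28 mice by treatment and sex, with group means ± SD. Open points are the 5 mice that stand apart in neurointermediate lobe, myelin or adipocyte markers. Pmvk and Cyp51 of restraint females lie above all control females, and control male 1 is the highest control male for Cyp51 at 44.3 CPM.

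By sex, 14 of the 21 synthesis genes were lower in females by the adjusted p, against 16.7% of all genes tested, with a median of -0.23 against 0.01 over all genes tested. Of these 4 were called lower, against 7.79% of all genes tested. Hmgcs1, Msmo1, a sterol methyl oxidase, at -0.34 and Hsd17b7 at -0.33 were among them. Without the 5 mice 16 were lower and 3 called, with Hsd17b7 at -0.28 no longer past the fold limit. In home cage controls 2 were called lower (Hmgcs1 and Msmo1, against 5.79% of genes), and 0 without the 5 mice, with Msmo1 at -0.25 (adjusted p = 0.114).

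Of the 7 genes of sterol sensing and SREBP processing, 4 were lower in females by the adjusted p, against 16.7% of all genes tested: Insig1, Insig2 at -0.21, Scap at -0.18 and Mbtps2, the second protease, at -0.19. Srebf1, the partner factor that drives fatty acid genes, had an estimate of 0.07 that did not pass. None of the 7 passed after restraint, PSD or PSD + restraint by edgeR in all mice, with 1, 1 and 0 at an unadjusted p under 0.05. Of 18936 genes tested, 1948, 3328 and 4838 had such a p in turn.

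Of the 8 uptake genes 7 were tested. After restraint and after PSD none of the 7 passed by edgeR in all mice, with 1 at an unadjusted p under 0.05 in each, against 1948 and 3328 of 18936 genes tested. Lrp1, a large scavenging receptor, was higher after PSD + restraint at 0.30 (edgeR adjusted p = 0.0152), under the fold limit. It did not pass without PSD + restraint male 2 (adjusted p = 0.0596). That made 1 of 7 higher by the adjusted p, against 1052 of 18936 genes tested. Lrp1 was also higher in females than in males at 0.26 (edgeR adjusted p = 0.00131), again 1 of 7, against 17.7% of all genes tested. In home cage controls Mylip, a ubiquitin ligase, was called lower in females at -0.33 (1 of 7, against 5.79% of genes tested). Scarb1, the high density lipoprotein receptor, was lower there at -0.32 by the adjusted p (2 of 7 with Mylip, against 7.55%). Across all mice 0 of the 7 were lower in females by the adjusted p. Scarb1 did not pass without the 5 mice, at -0.33 (adjusted p = 0.0650).

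Of 12 genes of transport, storage and efflux, 3 were lower in females and 1 higher by the adjusted p, against 16.7% lower and 17.7% higher among all genes tested. Stard4, a cytosolic sterol carrier, was called lower in females at -0.46 (edgeR adjusted p = 2.24e-06) and Abca1, the cholesterol exporter, at -0.40 (edgeR adjusted p = 0.000316). These were the 2 of 12 called lower, against 7.79% of all genes tested. Npc2, a lysosomal carrier, was lower at -0.27, Soat1, which stores cholesterol as esters, was higher at 0.11, and Abcg1 had an estimate of -0.06 that did not pass. None of the 12 passed after restraint, PSD or PSD + restraint by edgeR.

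The 7 fatty acid genes are driven by the SREBP1 side of the system. After restraint their median log2 fold change was 0.45 with none passing, and it was -0.02 without the 5 mice, restraint female 3 among them. Restraint female 3 held 804 CPM of Fasn and 1092 CPM of Scd1, beside its adipocyte transcripts Adipoq at 40.5 CPM, Ucp1 at 215.6 CPM and Fabp4 at 424.5 CPM. The part of those transcripts in its Insig1 level, the highest among females, and in its Srebf2 level of 74.9 CPM, the lowest of all mice, was not tested.

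Within groups, several of the members varied together from mouse to mouse. Each value was taken as its deviation from the mean of its own group in log2 CPM, and p-values came from 100000 permutations of mice within groups, two-sided, adjusted over all 28 pairs. Hmgcs1 and Idi1 had the highest correlation, r = 0.72 and rho = 0.82 over 28 mice (p = 1e-05 for each by permutation, the smallest these can give, adjusted 0.00028). Without the 2 mice farthest from the median of Hmgcs1 r was 0.82, and without the 5 mice it was 0.83. For every pair the 2 farthest mice were those of the first gene named, so mice far out in the second gene alone stayed in. Idi1 and Insig1 gave r = 0.72 (permutation p = 0.00069, adjusted 0.00966) and rho = 0.71 (p = 0.00058, adjusted 0.00812), and r = 0.66 without the 2 farthest mice. Fdft1 and Insig1 gave r = 0.65 and rho = 0.60 (permutation p = 0.00248 and 0.00423, adjusted 0.0174 and 0.0246), and r = 0.54 without the 2 farthest.

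Lss was tied most closely to Dhcr7, the other late enzyme of the set. Their r was 0.64 and rho 0.62 (permutation p = 0.0039 and 0.00439, adjusted 0.0218 and 0.0246), with r = 0.53 without the 2 farthest mice. Dhcr7 and Insig1 gave r = 0.60 and rho = 0.65 (permutation p = 0.00225 and 0.00126, adjusted 0.0174 and 0.0118), with r = 0.58 without the 2 farthest mice. Idi1 and Fdft1 passed by r = 0.52 (adjusted permutation p = 0.0491) but not by rho = 0.49 (adjusted 0.0898), which left 5 pairs of 28 past the adjusted limit by both measures and 6 by r.

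Srebf2 had r between -0.54 and 0.34 with the other 7, and 3 of its 7 correlations were above 0. Among the 21 pairs without Srebf2, 19 were above 0, with a median r of 0.39. Its lowest value, r = -0.54 with Fdft1 (permutation p = 0.0152, adjusted 0.0610), became -0.20 without the 5 mice, while r with Lss was -0.46 (permutation p = 0.0250, adjusted 0.0862) and became -0.61 without them. The values of 1 library share its depth and cell makeup, whose part in these correlations was not tested.

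**Figure D5:**
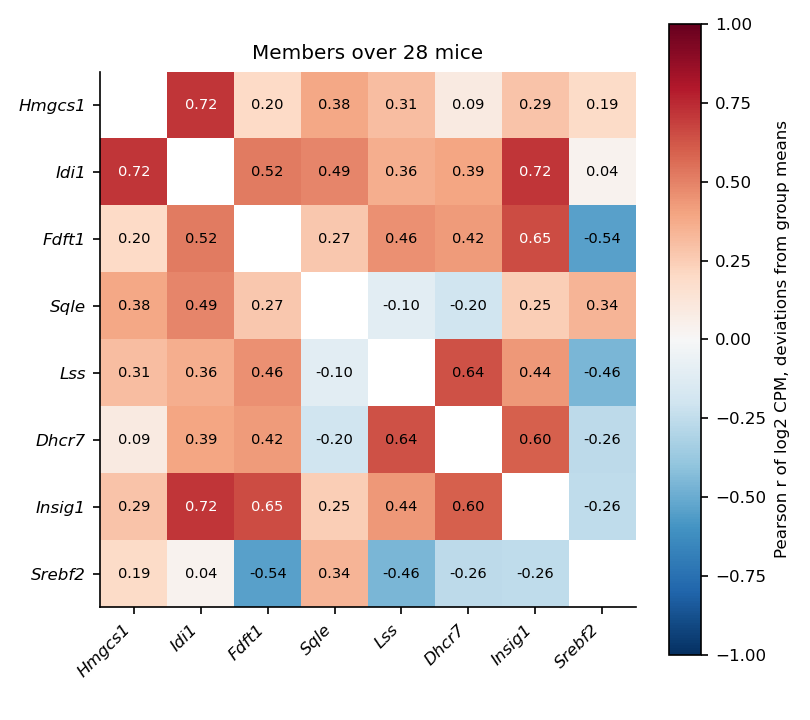
Pearson r between the 8 genes over 28 mice (color scale), computed on deviations of log2 CPM from the means of the 8 groups. The cells of Hmgcs1 with Idi1 and of Idi1 with Insig1 are the highest at 0.72, and the row of Srebf2 reaches down to -0.54 with Fdft1.

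Genes outside the pathway lists whose levels over the 28 mice, less the mean of each sex, were most like the mean of the 8 members included Hibadh (r = 0.66), Rad18 (r = 0.63), Oxr1 (r = 0.61) and Bhlhe41 (r = 0.61), out of 12203 genes with a mean of at least 5 CPM. Of the other genes of the pathway lists, Msmo1 had r = 0.55 and Nsdhl r = 0.53. These values describe likeness of level in these mice and carry no test.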

How the data were processed

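Pituitary RNA of 28 mice was sequenced with a stranded mRNA kit, paired-end. The authors aligned reads to mm10 with MapSplice, ran HTSeq 0.9.1 (intersection-nonempty) over the UCSC genes and deposited raw counts per gene and mouse. The strand setting of the counting is not given in the sources used here, so reads of overlapping antisense genes cannot be told apart. The authors also deposited normalized counts, which were not used.

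Counts were tested with edgeR 4.0.16 in R 4.3.3 (TMM, filterByExpr, quasi-likelihood test, Benjamini-Hochberg over all genes tested). Models had PSD, restraint and their interaction within each sex, the same plus sex in all mice, and 1 mean per sex and treatment for control mice and for the sex difference of a response. A gene was called at an adjusted p of at most 0.05 and a 1.25-fold difference, and passed on the adjusted p alone. CPM values used a prior count of 2 on the log scale. The p-values measure the spread between mice. The scripts were tested on simulated data. Members and gene lists were chosen with earlier results of these data known. Named genes are the 8 members, every list gene past the threshold in a comparison described, Insig2, Scap, Srebf1, Abca1 and Abcg1, and the genes most like the members. Some genes that the rule names are not reported here. The adipocyte list, the myelin covariate, edgeR's robust option and the exclusion of 5 mice were chosen after seeing the data. Other alternatives were DESeq2 1.42.0 (the study used 1.16.1), its size factors, other filters, a covariate for the neurointermediate lobe, fits of only the compared groups, a block by mouse number and leaving out each mouse. Exon lengths and positions come from GENCODE M21 (GRCm38), start regions from RefSeq (GRCm38.p6). The 37 same-group pairs of libraries all differed by more than sampling noise.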

Additional observations from a re-analysis of the deposited data

Results flagged for a closer look

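Within the groups of 4 mice, 40 pairs of a member and a group were checked for 1 mouse far from the others, and 2 were found, where chance gives about 1 in 20. Hmgcs1 was at 71.7 CPM in control male 1, against 55.2 to 56.8 CPM in the other control males. That mouse is also the one with few neurointermediate lobe transcripts, and the part of this in its Hmgcs1 level was not tested. Dhcr7 was at 26.2 CPM in control male 2, against 31.6 to 32.2 CPM in the other control males. By the adjusted tests, 0 of the 8 members had a response that differed between the sexes or an interaction of PSD and restraint.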

How the results depend on the processing

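Counts of members called (0 of 8 for each treatment comparison, 2 of 8 for each sex comparison) did not change under DESeq2, DESeq2's size factors or fits of only the groups compared. Fits of only the groups compared were not run for sex across all mice or for the interaction. Sex gave 3 with at least 10 counts in every mouse, 3 with no filter and 3 without the 5 mice, and sex in controls 3 with at least 10 counts. With no fold limit they were 1 for PSD + restraint in females, 2 for PSD + restraint, 1 for restraint within PSD, 6 for sex and 4 for sex in controls. Restraint in males gave 1 with the neurointermediate lobe covariate and 1 without the 5 mice, and sex in controls gave 0 under each of these. Sex across all mice gave 4 with the myelin covariate, and sex in controls gave 1 with edgeR's robust option. Mice with the same number were different animals and did not deviate together (24 female pairs, median r -0.02, and 15 male pairs, median r -0.07, with 2 over 0.1 in each sex). A replicate block gave 1 for sex in controls and 3 for sex, and changed no other count of members called.

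Leaving out 1 mouse at a time gave 0 to 1 for restraint in males (1 without control male 1), 0 to 1 for PSD + restraint in males (1 without control male 2), 0 to 1 for restraint in all mice (1 without control male 1), 2 to 4 for sex and 0 to 4 for sex in controls. Sex gave 4 without PSD + restraint female 1, PSD female 1, restraint female 3, control female 4, PSD + restraint male 2 or 3, PSD male 1, or control male 2 or 3. Sex in controls gave 0 without control female 2 or control male 1, 1 without control female 1 or control male 3 or 4, and 4 without control male 2.

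Among the members' estimates in all mice and in controls, signs turned for those near 0. Srebf2 after PSD + restraint was -0.0290 with the neurointermediate lobe covariate. Restraint within PSD gave 0.0458 for Hmgcs1 and 0.0186 for Sqle without the 5 mice. With 1 mouse left out the ranges were -0.0532 to 0.0178 for Dhcr7 after restraint, -0.0172 to 0.0412 for Dhcr7 after PSD, -0.00817 to 0.0446 for Sqle and -0.00450 to 0.0264 for Srebf2 after PSD + restraint. They were -0.0140 to 0.0798 for Idi1 and -0.0744 to 0.111 for Insig1 for restraint within PSD, and -0.0480 to 0.00939 for Srebf2 by sex in controls. The cause of these changes was not tested. Levels scaled by library size alone moved by more than 1 SD in 4 of 64 group means, Hmgcs1, Sqle and Lss in restraint males and Srebf2 in PSD males. The 2 restraint males limit every male restraint value.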
